A study of Mus musculus with 9 samples.

Results

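The wild-type baseline of hippocampal neuronal nuclei consisted of 3 of the 9 RNA-seq libraries of the series, chosen by their label, Wildtype, and made from 6-month-old C57BL/6J mice. These mice carried no transgene and received tap water from 2 months of age according to the methods, which the labels do not state, and no caffeine. The other 6 libraries, 3 from Tg4-42 mice, which express an amyloid-beta peptide in neurons from a Thy1 promoter construct, on water and 3 from Tg4-42 mice on caffeine, were not compared here. The starting material was frozen tissue, from which nuclei carrying NeuN were collected with a fluorescent antibody in a cell sorter, and their RNA was amplified from the poly(A) tail before sequencing. The labels speak of 6 animals for the isolation of nuclei and the methods of 3 mice per group for sequencing, and neither states whether a library came from 1 animal or from pooled tissue. All values describe this one genotype, and no contrast between groups was made. The libraries are named WT replicate 1, 2 and 3, numbers that follow the order of deposit and are only names, and SDs describe the spread between these libraries, part of which may be technical.

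NeuN is the product of Rbfox3, a splicing regulator found in most mature neurons, so the sort keeps nuclei of granule cells of the dentate gyrus, pyramidal cells of CA1 to CA3 and inhibitory interneurons and leaves out most glial nuclei. A nucleus holds newly made and retained transcripts, among them long noncoding RNAs that never leave it, while transcripts of the mitochondria and of the cytoplasm are largely lost with the cell body. Excitatory cells load glutamate into vesicles through VGLUT1, encoded by Slc17a7, and interneurons make GABA through the enzymes encoded by Gad1 and Gad2.

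Each library held between 12688394 and 16376922 exonic counts over 48709 listed genes, and 24246 to 24327 genes had at least 1 count. Levels are given in CPM, a gene's counts scaled to a common library total, when 1 gene is compared between replicates. TPM are given when genes are compared with each other, computed here as counts per kilobase of merged exons and scaled to the same sum as CPM. A count of 3 corresponded to 0.236, 0.183 and 0.190 CPM in WT replicate 1, 2 and 3, and lower values cannot be told from 0 by counting. A mean of at least 1 CPM was reached by 15930 genes, at least 10 CPM by 10466, at least 100 CPM by 2494 and at least 1000 CPM by 60, and wherever genes of a list are said to reach a level the mean over the 3 replicates is meant. Another 21046 genes had no count in any replicate. Across the 10466 genes at 10 CPM or more, Pearson's r of log2 CPM was 0.972 between WT replicate 1 and 2, 0.968 between 1 and 3 and 0.976 between 2 and 3, which are descriptions across genes that are not independent replicates. WT replicate 1 and 2 were read on sequencing lane 6 and WT replicate 3 on lane 7, so the lane cannot be told apart from that replicate.

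Several of the most abundant long noncoding genes contain microRNA hairpins between their start and end, introns included. Whether the reads came from microRNA precursors was not tested. The poly(A)-primed libraries counted the host transcripts, not the mature microRNAs. Of 308 long noncoding genes at 10 CPM or more, 27 contained a RefSeq microRNA hairpin on the same strand, 56 hairpins in all. Meg3, Mir99ahg, Rian, 5330434G04Rik and Ftx were the 5 highest hosts in CPM. Mature sequences are printed for 5 hosts, chosen after their values were seen because they carry microRNAs well known from neural tissue or pairs that share a seed, and they are not the 5 highest. The capitals mark the seed, bases 2 to 8, which pairs with target messages. All are on the plus strand of GRCm38.p6 as RefSeq lists them.
miR-99a-5p, chr16:77598940-77598961, host Mir99ahg: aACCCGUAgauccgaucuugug
let-7c-5p, chr16:77599672-77599693, host Mir99ahg: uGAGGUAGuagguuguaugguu
miR-100-5p, chr9:41531437-41531458, host 3110039I08Rik: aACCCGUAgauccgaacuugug
miR-125b-5p, chr9:41581940-41581961, host 3110039I08Rik: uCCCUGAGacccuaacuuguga
miR-137-3p, chr3:118433901-118433923, host Gm26871: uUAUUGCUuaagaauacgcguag
miR-29b-3p, chr1:195037091-195037113, host A330023F24Rik: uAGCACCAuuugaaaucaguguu
miR-29c-3p, chr1:195037600-195037621, host A330023F24Rik: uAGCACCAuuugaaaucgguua
miR-9-5p, chr3:88215613-88215635, host Gm3764: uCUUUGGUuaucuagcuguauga
miR-9-3p, chr3:88215652-88215673, host Gm3764: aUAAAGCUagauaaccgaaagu

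Only long noncoding genes with a mean of 10 CPM or more were searched for hairpins, so that the hosts are expressed follows from this choice. Mir99ahg, which carries miR-99a and let-7c, stood at 658, 551 and 548 CPM in WT replicate 1, 2 and 3. The transcript 3110039I08Rik, which carries miR-100 and miR-125b, stood at 132, 77.3 and 120.4 CPM. miR-99a and miR-100 share the seed ACCCGUA and lie in separate hosts on chromosomes 16 and 9. Gm3764, host of a miR-9 hairpin, stood at 302, 246 and 368 CPM. The same mature miR-9 pair also lies in C130071C03Rik, at 125, 119 and 119 CPM, and in Mir9-3hg, at 30.3, 26.6 and 29.7 CPM. These are the 3 hosts of miR-9, a microRNA of the neural lineage, among the genes searched. Gm26871, host of miR-137, which is enriched in neurons, stood at 269, 174 and 208 CPM. A330023F24Rik, host of miR-29b and miR-29c with their shared seed AGCACCA, stood at 216, 152 and 215 CPM. Mirg, within the imprinted domain of Meg3, held 14 hairpins and averaged 41.0 ± 5.01 CPM (SD, n = 3). WT replicate 2 was the lowest of the replicates for 3110039I08Rik, Gm3764, Gm26871, A330023F24Rik, Mir9-3hg and Mirg. It was also the lowest for C130071C03Rik, at 118.7 against 119.1 CPM in WT replicate 3, while Mir99ahg was lowest in WT replicate 3. Of all 10466 genes at 10 CPM or more, 31.8% were lowest in WT replicate 2.

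Counts were spread over many genes with a steep top. The 10 highest genes of each library held 5.18%, 4.16% and 4.44% of its counts in WT replicate 1, 2 and 3, and the 100 highest held 15.4%, 15.0% and 15.0%. The first 50% of counts came from 1282, 1277 and 1294 genes and the first 90% from 6664, 6584 and 6636. Between the replicates, 8 of the 10 highest and 84 of the 100 highest genes were shared by all 3 libraries. Protein-coding genes took 94.5% ± 0.843 of counts (SD, n = 3) and long noncoding genes 3.73% ± 0.533. Long noncoding genes took 4.32% in WT replicate 1, against 3.30% and 3.55% in the other replicates. Genes awaiting experimental support in the annotation took 1.38% ± 0.281, pseudogenes 0.182% to 0.240% and small or ribosomal RNA genes 0.0629% to 0.0707%. Of 7362 annotated long noncoding genes, 1389 reached 1 CPM, 308 reached 10 CPM and 37 reached 100 CPM. Of 21695 protein-coding genes, 13151 reached 1 CPM.

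**Figure D1:**
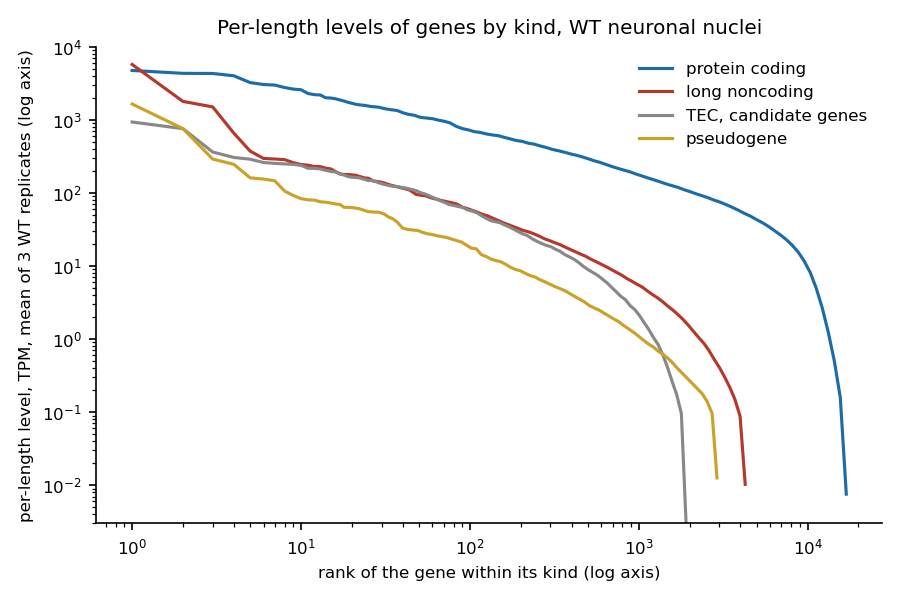
Level per length in TPM, as the mean of the 3 WT replicates (y axis, log), against the rank of the gene within its kind (x axis, log), with one line each for protein-coding genes, long noncoding genes, candidate genes awaiting experimental support (TEC) and pseudogenes. The long noncoding line starts above the coding line with Malat1 and lies below it at the later ranks.

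A trio of long RNAs led the CPM ranking. Malat1, a nuclear-retained RNA of speckles (chr19:5795690-5802672, minus strand, mm10), stood at 12039.9, 7802 and 7625 CPM in WT replicate 1, 2 and 3. Snhg11, a small nucleolar RNA host that the annotation used here counts as protein-coding, stood at 9599.6, 6629 and 9099 CPM. Meg3, a maternally expressed RNA of the Dlk1 imprinted domain, stood at 8434, 6396 and 7382 CPM. Malat1 and Meg3 were highest in WT replicate 1, and WT replicate 2 was lowest for Snhg11 and Meg3. Gria2, encoding the AMPA receptor subunit that limits calcium entry, came next at 5175, 4259 and 3965 CPM. The rest of the 10 highest were Syt1, the calcium sensor of vesicle release, Gpm6a, a membrane glycoprotein of neurites, Pcdh9, a protocadherin, Snap25, a fusion protein of synaptic vesicles, Prnp, which encodes the prion protein, and Serinc1, with mean levels of 2997 ± 248, 2962 ± 155, 2807 ± 397, 2710.2 ± 138, 2556 ± 295 and 2373 ± 116 CPM (SD, n = 3).

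Divided by exon length, the order among protein-coding genes changed. Prnp came first at 4773 ± 441 TPM, then Snhg11 at 4358 ± 927 and Calm2, a calmodulin gene, at 4341 ± 777 (SD, n = 3 for every TPM value). Gpm6a at 4035 ± 138, Itm2c, a membrane protein related to the dementia-linked Itm2b, at 3256 ± 773 and Psap, the precursor of lysosomal saposins, at 3063 ± 98.9 TPM followed. Tmem59l at 3011 ± 477, Atp1b1, the beta subunit of the sodium pump, at 2786 ± 408, Rsrp1 at 2652 ± 373 and Itm2b at 2600.2 ± 429.8 TPM completed the highest 10. Much of the order within this group was not resolved by the 3 replicates. The means of Prnp, Snhg11 and Calm2 lay within 1 SD of each other, and the SD of Calm2 covered the mean of Gpm6a. The SD of Itm2c covered the means of all genes after it. Gpm6a and Psap, in contrast, lay further apart than their SDs.

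Among noncoding genes, Malat1 led at 5766 ± 1697 TPM and Meg3 stood at 1798 ± 294. Gm23935 at 2847 ± 828 TPM has 57 exonic bases and Gm19932 at 1658 ± 419 has 313, so their levels per length rest on few bases. Gm15564, annotated as antisense, followed at 1512 ± 327 TPM. Gm43670, n-R5-8s1, Pisd-ps1, Gm37407 and Gm23114 were also among the 10 highest, between 746 ± 132 and 939.8 ± 263 TPM. With genes under 200 bases left out, an alternative added after the data were seen, Gm10558 at 662 ± 10.6, 4632427E13Rik at 375 ± 65.8 and Gm45183 entered the list. Gm10558 lies antisense to Map2, with 7.47% of its exonic bases shared. Kcnq1ot1, an imprinted antisense RNA that spans a long locus, stood at 1114, 839 and 1020.1 CPM in WT replicate 1, 2 and 3 but at 46.8 ± 7.82 TPM per length. Its reads and those of the genes it crosses cannot be separated, since the library did not mark strand. Miat stood at 543, 396 and 587 CPM and Rian, an RNA of the Meg3 domain, at 483, 433 and 458 CPM. Neat1, the RNA of paraspeckles, was at 5.75, 6.59 and 12.2 CPM, with WT replicate 3 the highest. H19 was listed at 0 in all 3 libraries.

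The markers used to check the sort were all detected. Rbfox3 (ENSMUSG00000025576, chr11:118489762-118911597, minus strand, mm10) stood at 89.7, 112 and 113 CPM in WT replicate 1, 2 and 3, a mean of 78.9 ± 8.70 TPM. Slc17a7 (chr7:45163949-45176142) stood at 553, 876 and 912 CPM and Gad1 (chr2:70553072-70602014) at 404, 331 and 276 CPM. WT replicate 1 was the lowest for Rbfox3 and Slc17a7 and the highest for Gad1. Camk2a, the alpha subunit of the calcium and calmodulin-dependent kinase of excitatory neurons (chr18:60925618-60988152), stood at 286, 251 and 260.2 CPM and was the steadiest of these markers. Prox1, the fate determinant of granule cells (chr1:190118035-190170714), stood at 83.8, 85.6 and 64.3 CPM, with WT replicate 3 lowest. Per length Slc17a7 reached 632 ± 153 TPM, Gad1 194 ± 39.5, Camk2a 156 ± 14.6 and Prox1 40.6 ± 5.91 TPM. Their ranges in TPM did not overlap except between Camk2a and Gad1.

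**Figure D2:**
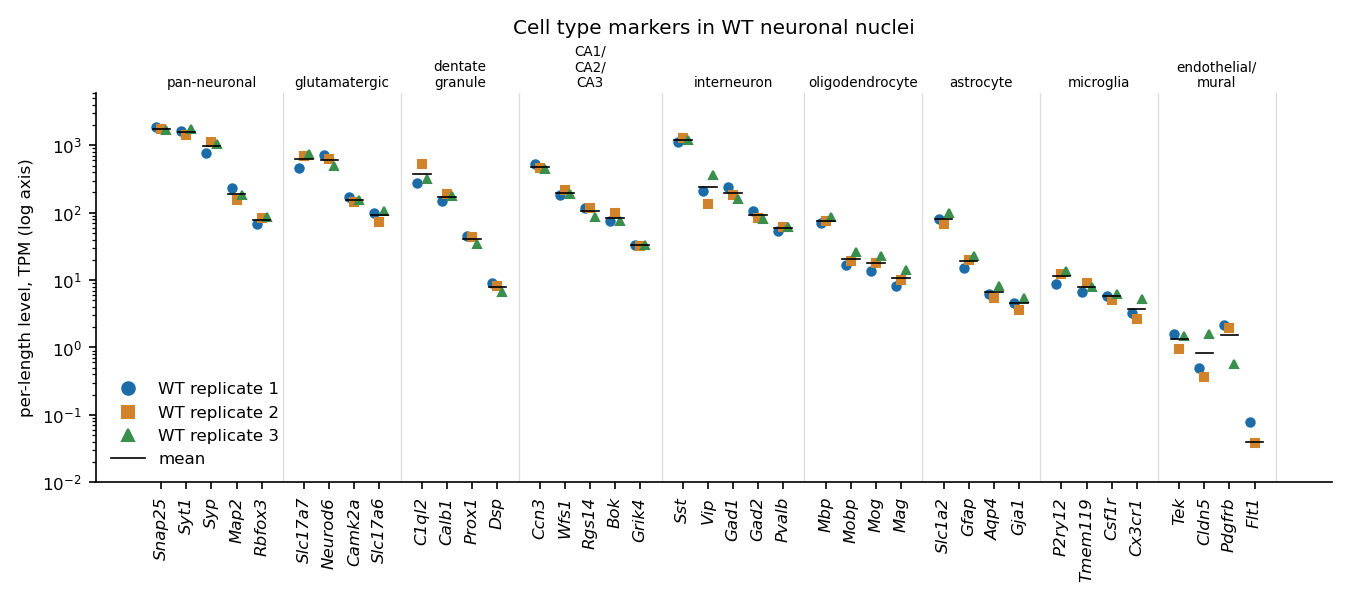
Level per length in TPM (y axis, log) of marker genes of neurons, glia and vessels (x axis, grouped by cell type), with one symbol for each WT replicate and a line at the mean. Snap25 and Sst exceed 1000 TPM, the endothelial and mural genes stay near or below 1 to 3 TPM, and Flt1 is listed at 0 in WT replicate 3 and is not drawn there.

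All 14 pan-neuronal genes were above 10 CPM, and their summed level was 9340, 9518 and 9445 CPM in WT replicate 1, 2 and 3. Per length Snap25 led at 1749 ± 93.1 TPM, followed by Syt1 at 1577 ± 162, with overlapping ranges over the replicates. Syp, a vesicle membrane protein, came next at 969 ± 175 TPM and its range overlapped neither. The neurofilament heavy chain gene Nefh was the lowest at 15.3 ± 0.713 TPM.

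Of 9 glutamatergic genes, 7 reached 10 CPM. Slc17a7, Nrgn, a calmodulin-binding postsynaptic protein, and Neurod6, a transcription factor of excitatory neurons, were close at 632 ± 153, 618 ± 187 and 610.1 ± 117 TPM, with overlapping ranges. Slc17a6, the vesicular transporter of subcortical and some hippocampal neurons, stood at 92.6 ± 18 TPM and Slc17a8 at 1.56 ± 0.423. The ratio of Slc17a7 to Slc17a6 in TPM was 4.62, 9.56 and 7.04. Slc17a7 exceeded Gad1 by 1.94, 3.75 and 4.68 times in WT replicate 1, 2 and 3 on the TPM scale, while Gad1 exceeded Gad2 by a steadier 2.20, 2.17 and 1.96 times. In bulk samples a lower share of one cell type and less RNA per cell of it cannot be told apart.

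Markers of every hippocampal field were present. All 13 dentate granule cell genes were above 10 CPM, led by C1ql2, a synaptic organizer of mossy fibres, at 369 ± 132 TPM, and Calb1, calbindin, at 171 ± 21.9. Of the 13, 5 were lowest in WT replicate 1, 1 in WT replicate 2 and 7 in WT replicate 3. Of all 10466 genes at 10 CPM or more, 35.1%, 31.8% and 33.1% were lowest in WT replicate 1, 2 and 3. Highest in WT replicate 2 were 9 of the 13, against 32.6% of all genes. Tdo2, an enzyme of tryptophan breakdown, stood at 17.4, 23.6 and 12.7 CPM, and C1ql2 stood at 122, 245 and 143 CPM, lowest in WT replicate 1. All 7 CA1 genes were above 10 CPM, with Ccn3, a secreted matrix protein, at 481 ± 39.9 TPM and Wfs1, a protein of the endoplasmic reticulum, at 196 ± 20.9. Fibcd1 stood at 144, 179 and 68.6 CPM, and WT replicate 3 lay below the other replicates. Of 7 CA2 genes 6 reached 10 CPM, with Rgs14, a regulator of G protein signalling, at 108 ± 17.4 TPM, and of 6 CA3 genes 5 did so, with Grik4, a kainate receptor subunit, at 33.1 ± 0.717 TPM. Calb2, calretinin, was the 1 gene of 5 mossy cell genes above 10 CPM, at 29.2, 24.4 and 13.3 CPM. Of 10 genes marking subiculum or neighbouring neocortex 9 were above 10 CPM, and they varied unequally. Fezf2, a factor of deep-layer neurons, stood at 33.9, 35.1 and 34.1 CPM, while Cux2, a factor of upper-layer neurons, stood at 13.4, 11.5 and 24.4 CPM and Fn1, fibronectin, at 67.5, 41.5 and 37 CPM. Of the 9, 1, 4 and 4 were highest in WT replicate 1, 2 and 3, against 35.1%, 32.6% and 32.3% of all genes.

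Interneuron genes numbered 21, of which 17 reached 10 CPM. Somatostatin, Sst, led them at 1198 ± 67.4 TPM and neuropeptide Y, Npy, followed at 741 ± 112. Vip stood at 161, 108 and 282 CPM, so that WT replicate 3 was the highest and WT replicate 2 the lowest. Parvalbumin, Pvalb, stood at 12.5, 14.8 and 14.2 CPM, and Slc32a1, the vesicular GABA transporter, at 13, 13.4 and 16.7 CPM. Lamp5, a marker of neurogliaform cells, stood at 143, 172 and 289 CPM, highest in WT replicate 3. Of the 17, 8 were highest in WT replicate 1, 3 in WT replicate 2 and 6 in WT replicate 3. Of all 10466 genes at 10 CPM or more, 35.1%, 32.6% and 32.3% were highest in WT replicate 1, 2 and 3. Lowest in WT replicate 3 were 7 of the 17, Gad1 and Gad2 among them, against 33.1% of all genes. Genes of immature neurons and progenitors were sparser, with 3 of 11 above 10 CPM. Dcx, a microtubule protein of migrating neurons, stood at 191, 123 and 182 CPM, while Eomes had no count in any replicate and Nes and Top2a stayed at or below the 3-count floor.

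Glial genes were detected in the sorted nuclei. Oligodendrocyte genes reached 10 CPM in 5 of 9, and their sum was 341, 410 and 485 CPM in WT replicate 1, 2 and 3. Mbp, myelin basic protein, stood at 131, 149.5 and 163 CPM and Mobp, another myelin protein, at 25.7, 31 and 40.5 CPM. Both were lowest in WT replicate 1 and highest in WT replicate 3. Astrocyte genes reached 10 CPM in 6 of 10, with a sum of 451, 437 and 577 CPM, and Slc1a2, the glial glutamate transporter, stood at 233, 207 and 291 CPM. The microglial sum was 53.7, 68.8 and 80.4 CPM, and P2ry12, a purine receptor of microglia, stood at 5.04, 7.33 and 7.98 CPM. The endothelial sum was 3.15, 1.89 and 3.17 CPM, and 0 of 6 endothelial genes, 0 of 5 genes of oligodendrocyte precursors and 0 of 5 mural genes reached 10 CPM. Of 4 genes listed for fibroblasts 1 reached 10 CPM, Dcn, decorin, at 225, 224 and 59.5 CPM, low in WT replicate 3. Of 5 genes of choroid plexus and ependyma 3 reached 1 CPM and 2 reached 10 CPM. Ttr, transthyretin of the choroid plexus, was among the latter at 56.7, 63.6 and 42.2 CPM. Which cells the Dcn and Ttr reads came from was not tested. The part of these cells in any difference between replicates was not tested.

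Genes that mark tissues other than the hippocampus were mostly near the floor. Of 15 genes of non-brain organs, 5 had no count and 1 reached 10 CPM, the muscle actin Acta1 at 11.1, 10.3 and 9.62 CPM. Of 13 patterning genes of hindbrain and spinal cord, 12 had no count in any replicate. Of 1065 olfactory receptor genes, 976 had no count and 2 reached 1 CPM. Among 7 genes of monoamine and cholinergic cell bodies, 1 reached 1 CPM.

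Caffeine blocks adenosine receptors, whose genes were measured here in animals that received none. Adora1, encoding the inhibitory adenosine A1 receptor, stood at 204, 277 and 280.4 CPM in WT replicate 1, 2 and 3, or 192 ± 29.7 TPM, and shares 20.1% of its exonic bases with Mybph. Adora2a, a stimulatory adenosine receptor, stood at 0.63, 0.366 and 0.443 CPM. Adora2b and Adora3 lay at or near the floor, with 0.0788, 0.183 and 0.317 CPM and 0.0788, 0.122 and 0.0633 CPM. The ratio of Adora1 to Adora2a in TPM averaged 302 ± 118 (SD, n = 3), a value whose denominator rests on few counts. Adk, the kinase that clears adenosine inside the cell, stood at 56.4, 72 and 51.7 CPM, and Slc29a1, a nucleoside transporter of the membrane, at 53.7, 59.8 and 50.2 CPM. Ada, adenosine deaminase, had 0.63, 0.488 and 0.507 CPM, and Nt5e, which makes adenosine outside the cell, 9.62, 9.28 and 13 CPM.

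AMPA receptor genes led the glutamate receptors. Gria2 reached 1261 ± 200.5 TPM and Gria1 811 ± 152, with ranges that did not overlap, and the ratio between them was 1.57 ± 0.197 (SD, n = 3). Grm5, a metabotropic receptor coupled to calcium release, followed at 498 ± 91.3 TPM, then Grm7, a presynaptic autoreceptor, at 357 ± 41.7 and Gria3 at 245 ± 41.2, each range apart from the next. Gria3 and Gria4, at 229 ± 55.6 TPM, overlapped. Grin2a exceeded Grin2b, the NMDA receptor subunits that set channel kinetics, by 1.57, 1.83 and 1.44 times on the TPM scale in WT replicate 1, 2 and 3. Of 26 glutamate receptor genes, 21 reached 10 CPM, and Grm6 of the retina and Grin3b had no count.

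**Figure D3:**
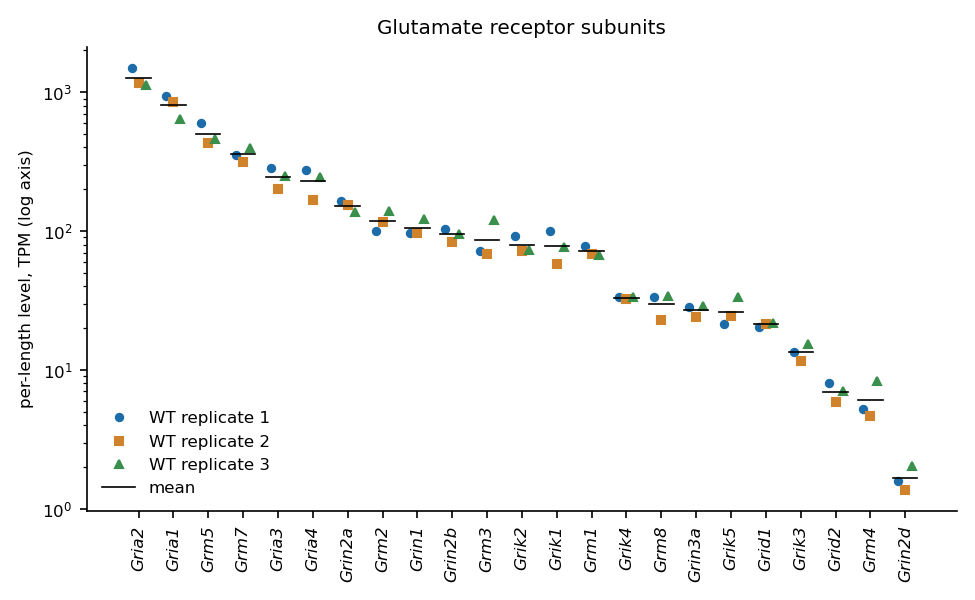
Level per length in TPM (y axis, log) of glutamate receptor genes (x axis, ordered by mean), with one symbol for each WT replicate and a line at the mean. Gria2 leads the family at a mean of 1261 ± 200.5 TPM, and Grm3 and Grm4 are highest in WT replicate 3. Genes under 1 CPM are not drawn.

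Among GABA receptor genes, Gabra5, a subunit of extrasynaptic receptors in the hippocampus that is not the highest of the list, stood at 479.7 ± 108 TPM and Gabra4, a subunit of tonic inhibition, at 383 ± 19.9, with overlapping ranges. Gabbr1, a subunit of the metabotropic GABA-B receptor, stood at 330.5 ± 22.7 TPM. Gabrd, the delta subunit of tonic inhibition in granule cells, stood at 93, 119.7 and 158 CPM, lowest in WT replicate 1. Of 21 genes, 14 reached 10 CPM, and Gabra6 of the cerebellum had at most 1 count per library.

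Of the genes that read calcium, Calm2 stood at 4341 ± 777 TPM and Calm3 at 472 ± 88.6. Calm2 exceeded Calm3 by 9.21 ± 0.328 times in TPM. Camk2b exceeded Camk2a by 1.69 ± 0.290 times. Itpr1, the receptor that releases calcium from stores on inositol trisphosphate, exceeded Ryr2, a ryanodine receptor, by 1.61 ± 0.116 times, at 51 ± 6.37 and 31.7 ± 4.19 TPM. Caffeine is known to act on ryanodine receptors at high doses. Scn3b, an auxiliary sodium channel subunit, led the sodium channel genes at 448 ± 33.3 TPM, and Cacna1e, the pore of R-type channels, led the calcium channel genes at 82.7 ± 9.38.

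Secreted peptides were high per length. Chgb and Scg2, granins that pack secretory granules, stood at 1385 ± 232 and 1208 ± 60.0 TPM, beside Sst and Cck, cholecystokinin, at 1058 ± 301. Cck stood at 211, 353 and 385 CPM and Vgf, a peptide precursor driven by activity, at 54.8, 79.5 and 135 CPM, both lowest in WT replicate 1. Trh, thyrotropin-releasing hormone, stood at 4.41, 2.02 and 1.77 CPM. Of 20 genes, 15 reached 10 CPM and Gal stayed below 1 CPM.

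Genes whose loss or excess is linked to Alzheimer disease were expressed at different heights. App, the amyloid precursor, stood at 1025, 1147 and 1295 CPM, or 389.7 ± 45.5 TPM, and its relative Aplp1 at 1044, 1897 and 1674 CPM. The ratio of Aplp1 to App in TPM was 5.69 ± 1.37 (SD, n = 3). Mapt, tau, stood at 179.6, 178 and 183 CPM, almost level between replicates. Apoe, the lipid carrier made chiefly by astrocytes, stood at 41.7, 71.9 and 79.2 CPM, lowest in WT replicate 1. Bace1, the beta-secretase gene, of whose exonic bases 32.5% overlap Rnf214, stood at 134 ± 10.1 TPM. Thy1, whose promoter drives the transgene in the other groups, stood at 82.5, 84.5 and 86.9 CPM.

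Immediate early genes, which neurons switch on within minutes of activity, differed between the replicates. Arc, a synaptic plasticity gene, stood at 198, 353 and 333 CPM and Fos, a transcription factor, at 25.9, 70.0 and 47.8 CPM. Nr4a1 stood at 39.2, 122 and 133 CPM and Egr2 at 1.81, 18.3 and 21.3 CPM. WT replicate 1 was below both other replicates for all 4. Of 18 immediate early genes at 10 CPM or more, 15 were lowest in WT replicate 1, against 35.1% of all 10466 genes. The count was 14 with a correction for GC content, added after the data were seen, against 3552 of the 10447 genes with a GC value. It was 17 with TMM scaling, under which 4498 of all 10466 genes were lowest in that replicate. Their median deviation from the mean of the 3 replicates was −0.43 in WT replicate 1, 0.29 in WT replicate 2 and 0.24 in WT replicate 3 (log2). Jun, Junb and Btg2 were not lowest in WT replicate 1, and Btg2 stood at 82.1, 139.8 and 74.7 CPM, highest in WT replicate 2 and lowest in WT replicate 3.

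RefSeq windows from 250 bases before to 50 after each start were searched for the cyclic AMP response element TGACGTCA, known from activity-driven genes, and the TATA box TATAAA. Stretches are printed for the 6 peptide or immediate early genes whose window holds the first motif. For the second motif only Fos is printed, though windows of 4 immediate early genes and 3 peptide genes hold it. Both strands were searched, TGACGTCA reads the same on both, neither motif contains the other, and the capitals mark the motif. The coordinates are those of GRCm38.p6.
Sst, chr16:23890874-23890903, minus strand: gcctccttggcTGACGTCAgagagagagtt
Scg2, chr1:79440076-79440105, minus strand: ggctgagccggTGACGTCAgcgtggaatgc
Chgb, chr2:132781559-132781588, plus strand: gggctgctccgTGACGTCAgggctgagcga
Cartpt, chr13:99900777-99900806, minus strand: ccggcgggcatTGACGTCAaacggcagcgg
Dusp1, chr17:26508597-26508626, minus strand: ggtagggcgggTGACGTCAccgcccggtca
Btg2, chr1:134079303-134079332, minus strand: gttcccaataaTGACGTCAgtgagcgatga
Fos, chr12:85473845-85473874, plus strand: tcacagcgcttcTATAAAggcgccagctga

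The TGACGTCA motif lay 48 bases before the start of Sst, 68 before Scg2, 72 before Chgb, 112 before Cartpt, 143 before Dusp1 and 166 before Btg2. It was in 4 of 19 windows of peptide and granin genes (21.1%) and in 2 of 29 windows of immediate early genes (6.90%), against 2.18% of all 23889 windows. Among coding genes with windows, its share was 0.871% below 0.1 TPM and 9.68%, 6 of 62 windows, at 1000 TPM or more. Those 6 belong to Chgb, Scg2, Sst, Tmem59l, Tubb2a and Zwint. TATAAA was in 25.9% of windows below 0.1 TPM, 6.10% at 10 to 100 TPM and 11.3% at 1000 TPM or more. The median ratio of observed to expected CpG was 0.168 below 0.1 TPM and 0.772 at 10 to 100 TPM. A match describes letters in a window and was not related to any factor's binding.

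The spread between the 3 replicates was measured gene by gene. The common biological coefficient of variation, the replicate scatter beyond counting noise, was 0.181 over 16960 genes. Gene-wise coefficients are estimates that edgeR draws toward the value typical of their level. Their median fell from 0.301 for genes under 1 CPM to 0.138 at 100 to 300 CPM and 0.141 at 1000 CPM or more. Of 10466 genes at 10 CPM or more, 8716 (83.3%) differed less than 1.5 times between the highest and the lowest replicate, with a median of 1.27 times, and 252 differed more than 2 times, and 6 more than 5 times. The widest, relative to genes of their level, were Prkcd, a protein kinase C gene, at 72.4, 13.6 and 6.78 CPM, Plekhg1 at 49.6, 8.12 and 6.78 CPM and Coch at 15.4, 9.34 and 63.5 CPM. Egr2, Ccn1, a secreted matrix protein at 3.63, 27 and 21.7 CPM, Cckbr, the cholecystokinin B receptor at 62.2, 59.7 and 198 CPM, Dcn, Nr4a1, Rorb at 24.4, 8.49 and 43.5 CPM and Gm26917 at 108, 295 and 103 CPM completed the widest 10. Of the 40 widest genes, 29 were highest in WT replicate 3, against 32.3% of all 10466. The narrowest included Cacna1i, a T-type calcium channel gene at 10.7, 10.4 and 10.4 CPM, together with Cabyr, Atf1, Sarnp, Gm7265, Il4ra, Zfp791, 2810006K23Rik, Immp1l and Ift43.

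**Figure D4:**
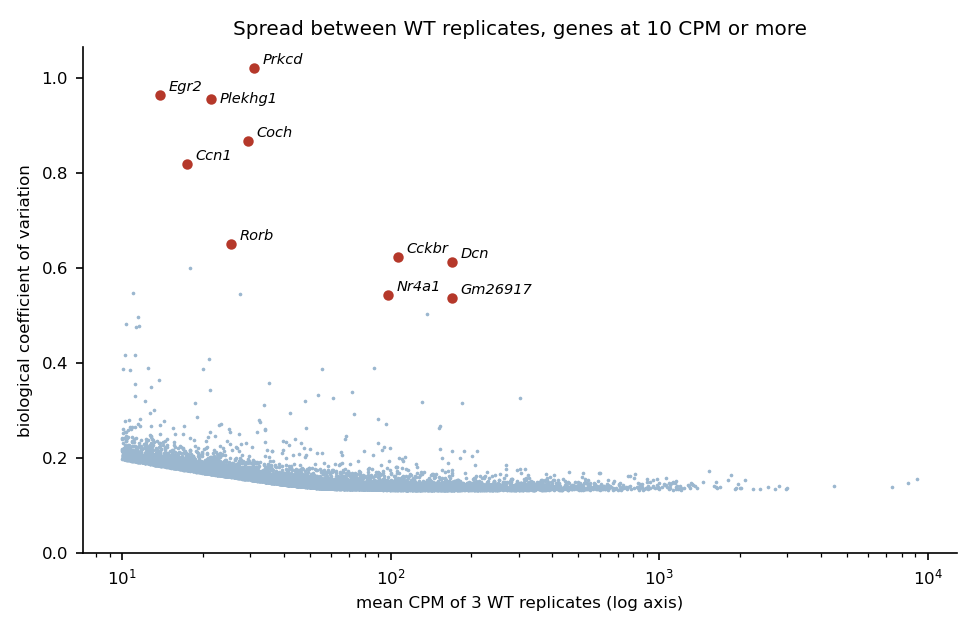
Biological coefficient of variation (y axis) against mean CPM of the 3 WT replicates (x axis, log), one point per gene at 10 CPM or more, with the 10 widest genes in red. Most genes form a narrow band whose median is 0.183 at 10 to 30 CPM and 0.138 at 100 to 300 CPM, and the named genes stand above it. The gene-wise estimates are drawn toward the value typical of their level, which narrows the band.

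Groups of genes differed together between the replicates. Oxidative phosphorylation genes encoded in the nucleus were highest in WT replicate 2 for 73 of 82 at 10 CPM or more, against 32.6% of all genes, with median deviations of −0.07, 0.23 and −0.13 (log2) in WT replicate 1, 2 and 3. Mitochondrially encoded genes were lowest in WT replicate 3 for 6 of 6 such genes, against 33.1% of all genes, and their sum was 319.5, 351 and 211 CPM over all 37 genes. With the GC correction 5 of 6 were lowest there, against 3436 of the 10447 genes with a GC value. Oligodendrocyte genes were lowest in WT replicate 1 and highest in WT replicate 3 for 5 of 5, against 35.1% and 32.3% of all genes. Long noncoding genes of the list were highest in WT replicate 1 for 16 of 23, against 35.1% of all genes, and lowest in WT replicate 2 for 14, against 31.8%. With the GC correction 12 of 23 were highest in WT replicate 1, against 3501 of 10447 genes. With TMM scaling 13 were highest there, against 2863 of 10466. Peptide genes were lowest in WT replicate 1 for 11 of 15, against 35.1% of all genes. With the GC correction 9 of 15 were lowest there, against 3552 of 10447. Other lists shared this low place of WT replicate 1. Alzheimer-related genes were lowest there for 11 of 14 and histone genes for 7 of 7, against 35.1% of all genes. With the GC correction these were 8 of 14 and 7 of 7. The deviations of all 10447 genes with a GC value correlated with GC at r −0.43, 0.23 and 0.25 in WT replicate 1, 2 and 3, and with log2 exon length at 0.20, −0.33 and 0.09, descriptions across genes that carry no p. The part of exon length and lane in these differences was not tested.

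**Figure D5:**
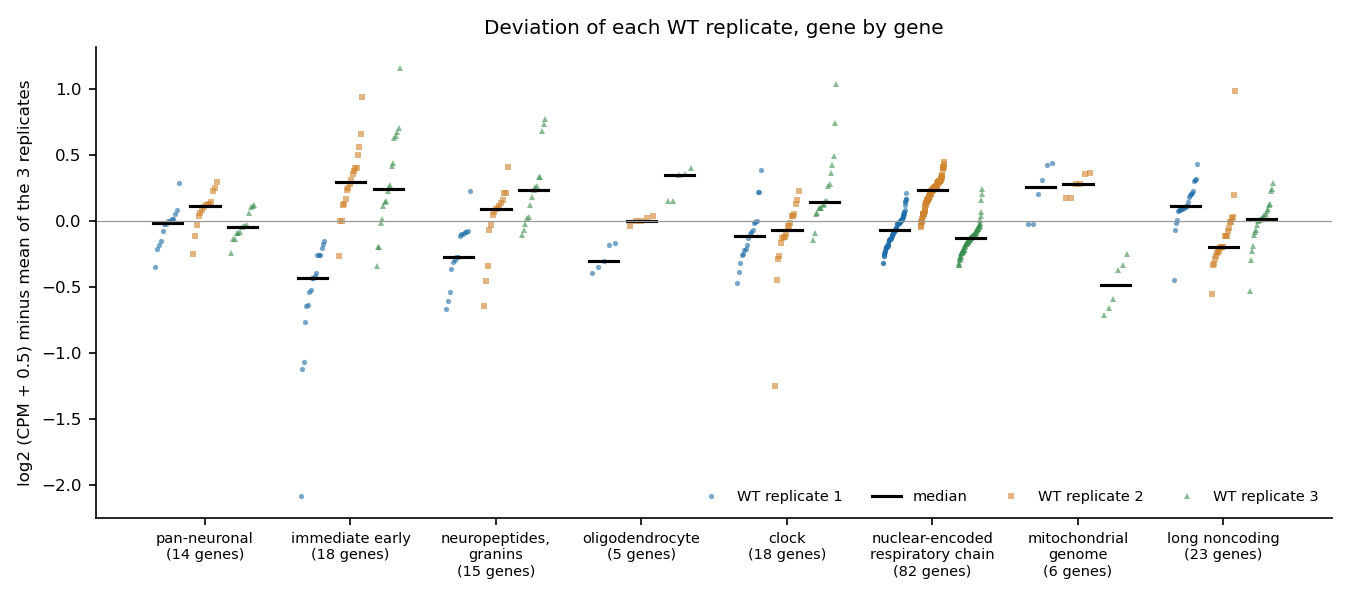
Deviation of each gene from its mean over the 3 WT replicates, as log2 of CPM plus 0.5 (y axis), by gene list (x axis), one symbol per gene and replicate and a bar at the median of each replicate. The median of immediate early genes is −0.43 in WT replicate 1, and that of nuclear respiratory chain genes is 0.23 in WT replicate 2.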

How the data were processed

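Nuclear RNA from sorted NeuN-positive hippocampal nuclei of WT mice was analysed in 3 libraries. According to the methods, the authors amplified RNA with SMART-Seq v4, built Nextera XT libraries, which do not mark strand, sequenced 50-base single-end reads, aligned them to mm10 with STAR and counted exonic reads per gene with featureCounts. The deposited exon counts are whole-number counts without normalization. Tool versions, the annotation release and the treatment of multimapping or overlapping reads are not given in the sources used here.

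Counts were divided by the library total (counts per 1000000, CPM) or by merged exon length from GENCODE M21, which matched 48349 of 48709 gene IDs (TPM). Totals were 12688394, 16376922 and 15792558 counts. Floors of 3 counts cover counting error only, since reads carried no molecular identifiers. Biological coefficients of variation came from edgeR 4.0.16 with genes of at least 10 counts in 2 libraries, and DESeq2 1.42.0 was the alternative (median 0.182 against 0.181). The dispersion step was tested on simulated data. Deviations are log2 of CPM plus a pseudocount of 0.5 minus the mean of the replicates, for genes at 10 CPM or more. No comparison between groups and no p-value was computed.

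Genes named were members of fixed lists, the 10 highest in CPM, the 10 highest coding and noncoding genes per length, and the 10 widest and narrowest by the ratio of gene-wise to trended dispersion. Hosts of microRNAs and the genes at 1000 TPM or more whose window holds TGACGTCA were named in addition, after their values were seen. The members and lists were chosen with earlier results of these data known. Alternatives tried were other filters, scalings, lengths and left-out replicates. A correction for GC content in 20 groups and a list of noncoding genes of 200 bases or more were added after seeing the data. Promoter and microRNA sequences came from RefSeq tables for GRCm38.p6, with 23889 windows of 19584 genes matched by symbol. R 4.3.3, Python 3.11.15, numpy 2.4.6 and pandas 2.3.3 were used. Some members of the lists are counted but not reported here by name.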

Additional observations from a re-analysis of the deposited data

How the results depend on the processing

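The levels were recomputed with other count minimums, scalings, gene lengths and sets of replicates. Without the 10 highest genes, protein-coding genes took 96.0% of counts and long noncoding genes 2.17%. Per kilobase, protein-coding genes took 90.1% and candidate genes awaiting support 2.52%. With 1 replicate left out in turn, genes at 1 CPM or more numbered 15736 to 16030, at 10 CPM 10401 to 10474, at 100 CPM 2488 to 2509 and at 1000 CPM 60 to 65. In the same fits, genes with at least 3 counts in every replicate numbered 19208 to 19318, against 18731 with all 3, and the coefficient of variation was 0.167 to 0.195. Coding genes then took 94.1% to 95.0%, long noncoding genes 3.43% to 3.94%, candidate genes 1.23% to 1.51% and the 10 highest genes 4.30% to 4.81% of counts, and 1280 to 1288 genes held 50%. The coefficient was 0.189 with no filter on low counts. It was 0.161 within the groups of all 9 libraries, which pools the scatter inside each group and leaves out differences between groups. With the longest transcript as length, 9 of the 10 highest coding genes and 9 of the 10 highest noncoding genes remained, and 33 of 41 lists kept their highest member. The lists that did not were those of pan-neuronal, CA3, subiculum and neocortex, immature neuron, long noncoding, peptide, transcription factor and RNA-binding protein genes. Of all alternatives, left-out replicates included, 65 for summary values and 72 for single genes stayed within the spread between replicates or within 1.5 times. Another 4 for summary values were shares of counts that lay outside the spread between replicates. They were both coding shares above, the long noncoding share without the 10 highest genes and the candidate share per kilobase. The coding shares, 96.0% and 90.1% against 94.5%, still lay within 1.5 times. A mean with 1 replicate left out is drawn from the same libraries, so its staying within their spread was largely fixed in advance. Depth limits genes below 0.236 CPM, the 3-count floor of WT replicate 1. No paired analysis was possible because no groups were compared and no result came from a test.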

Other observations

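Other groups of genes were described by their levels alone. All 20 neuronal RNA-binding protein genes reached 10 CPM. Rbfox1, a splicing factor, stood first at 262 ± 43.4 TPM, a place that Celf2 takes with the longest transcript as length, and Rbfox3, whose protein was used for the sort, stood at 78.9 ± 8.7 TPM. Ptbp2, the splicing regulator of neurons, stood at 165, 136 and 106 CPM, and its relative Ptbp1, which other cells use, at 21.8, 20.3 and 22.2 CPM in WT replicate 1, 2 and 3. Of 23 transcription factor genes 21 reached 10 CPM. Neurod6 stood first per length, but Tcf4, a basic helix-loop-helix factor, did so with the longest transcript as length, and it stood at 1285, 1186 and 1113 CPM. Mef2c, a factor of activity and of interneuron and cortical identity, stood at 449, 407 and 709.5 CPM, highest in WT replicate 3. Emx2 stayed between 0.552 and 2.69 CPM.

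Of 23 chromatin genes 21 reached 10 CPM. Hdac3, a histone deacetylase, led at 387 ± 61.8 TPM. Of 18 clock genes all reached 10 CPM, and 12 were highest in WT replicate 3, against 32.3% of all genes. Per2, a repressor of the clock, stood at 48.9, 56.2 and 114 CPM. Tef, a factor of its output, led them at 158 ± 6.89 TPM. Among 43 imprinted genes 25 reached 10 CPM. Nap1l5 stood at 1072 ± 115 TPM, Snrpn, of which 34.1% of exonic bases overlap a neighbour, at 906 ± 135, and Igf2 and H19 were at or below 0.473 CPM.

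The genes often used to scale expression did not share one level. Actb stood at 346, 406 and 264 CPM, Gapdh at 51.5, 42.9 and 43.2 CPM and Hprt at 137, 155 and 118 CPM. Gapdh, Ppia, Eef1a1 and Rpl13a have many processed copies in the genome, and counting can split their reads. Whether this affected their levels here was not tested. The Y-linked gene Eif2s3y stood at 365, 315 and 286 CPM in WT replicate 1, 2 and 3.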
